A study of Mus musculus with 4 samples.

Results

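The 36 genes described here encode the machinery with which mouse cells show peptides to T cells: 24 genes of the class I route and 12 of the class II route of the major histocompatibility complex (MHC). They were chosen by name, as class I heavy and light chains, class II chains, peptide-loading factors and the master regulators of both routes, and were found in the deposited tables by Ensembl identifier. Of the 36 genes, 35 are listed in every library of the series, among 30406 genes listed in all of them. Ifi30 is listed in the gain-of-function library only and is described at the end.

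Class I molecules sit on nearly every nucleated cell. A heavy chain pairs with beta-2-microglobulin and carries a peptide that the proteasome cut in the cytosol, that the transporter of Tap1 and Tap2 moved into the endoplasmic reticulum, and that tapasin and its chaperones loaded. Class II molecules are dimers of an alpha and a beta chain that load peptides in endosomes, under the care of the invariant chain (Cd74) and the exchange factor H2-DM, and they are made mainly by dendritic cells, B cells and macrophages. Epithelial cells, those of bile ducts included, make class II under interferon gamma, through the coactivator Ciita, while Nlrc5 plays the matching part for class I. Both coactivators bind DNA through proteins on the X and Y boxes that lie shortly before the start of their target genes.

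The libraries are droplet single-cell RNA libraries (10x Genomics, 3' v3 chemistry) of whole common bile ducts of mice, dissected free of neighbouring tissue and digested with dispase and a bacterial protease, with no treatment and no sorting. The library labelled Prom1_BcatGOF came from a duct with gain of function in Ctnnb1, which encodes beta-catenin, described as mosaic, and is called GOF below. The other 3 libraries are wild-type replicates. Sex, age, the construct and the driver behind the Prom1 name are not given in the labels, nor is it said whether the replicates were separate animals, so p-values measure the spread between these libraries, which may be technical. With 1 GOF library against 3, its own spread is unknown and is taken to be that of the wild-type libraries, and an exact permutation test could not go below p = 0.25. The matrix header names Cell Ranger 7.0.0 for GOF and 3.0.2 for wild type, with 32285 and 31053 genes listed, so genotype and processing cannot be told apart in any GOF comparison.

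The libraries held 2649 to 10796 barcodes and 9558637 to 113596685 unique molecular identifiers (UMIs, each a counted RNA molecule), GOF being the deepest. After filtering, 9229 barcodes remained in GOF and 4334, 2415 and 2058 in wild-type replicates 1, 2 and 3, and were clustered without the antigen presentation genes and named from markers, with 3.64% to 12.4% of a library left unnamed. In epithelial-like cells Axin2, a target of beta-catenin signalling, stood at 114 CPM in GOF (UMIs of the gene per 1000000 UMIs of the cell class) and 3.13, 6.78 and 5.58 CPM in the wild-type replicates, and Notum, another such target, at 32.3 against 0.581, 0.822 and 0.985. Ctnnb1 itself stood at 276 against 565, 536 and 447 CPM. Most GOF epithelial-like cells lay in clusters 0, 1, 5, 6 and 10, which held 0 to 4 cells of any wild-type library, and most wild-type ones in clusters 21, 22, 28, 31 and 36. The 28 T-like cells of wild-type replicate 3 carried class II UMIs at a level that the other wild-type T-like cells did not, so comparisons with T-like cells are given with and without that library.

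Of the 36 genes, 23 lie within 3.36 Mb of chromosome 17 (GRCm38, 33915899 to 37274484), the mouse MHC, and 13 elsewhere. The RefSeq promoter table of build GRCm38.p6 holds 30 of them. H2-Ab1, Nlrc5, Ciita, Tap2, Cd74 and H2-T24 are not among these. The sequences below are the 150 bases before the annotated start, 5′ to 3′, of some of the genes on which the epithelial results turn. Capitals mark matches to short letter patterns that were picked after the sequences had been seen. The class II genes come first, H2-Aa (chr17:34287824-34287973, minus strand), H2-Eb1 (chr17:34305717-34305866, plus strand) and H2-DMb1 (chr17:34153041-34153190, plus strand), with capitals at the Y box letters TGATTGG and the X box letters ACNGATGA:
H2-Aa: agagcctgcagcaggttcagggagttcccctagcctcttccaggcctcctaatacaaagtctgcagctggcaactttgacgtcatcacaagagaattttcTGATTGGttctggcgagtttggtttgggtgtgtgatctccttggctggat
H2-Eb1: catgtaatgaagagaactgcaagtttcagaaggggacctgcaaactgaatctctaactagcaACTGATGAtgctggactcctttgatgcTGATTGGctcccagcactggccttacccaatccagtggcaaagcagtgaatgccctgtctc
H2-DMb1: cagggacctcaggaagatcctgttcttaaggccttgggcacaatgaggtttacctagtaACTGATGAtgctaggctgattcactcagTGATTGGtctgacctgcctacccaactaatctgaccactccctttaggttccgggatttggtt

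In H2-Eb1 the X box match begins 88 bases and the Y box match 61 bases before the start. H2-DMb1 has the same arrangement, at 91 and 63 bases. H2-Aa has the Y box letters at 50 bases and no match to the X box letters. The class I genes H2-Q7 (chr17:35439005-35439154, plus strand), H2-D1 (chr17:35262944-35263093, plus strand) and B2m (chr2:122147537-122147686, plus strand) are shown because the first passed the test of GOF against wild-type epithelium and the others did not. Their capitals mark the same 2 patterns, on either strand, and in B2m the cores of the interferon-stimulated response element and of the NF-kB site:
H2-Q7: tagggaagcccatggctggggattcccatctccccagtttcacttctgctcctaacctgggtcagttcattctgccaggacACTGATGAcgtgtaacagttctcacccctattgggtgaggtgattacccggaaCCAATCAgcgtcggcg
H2-D1: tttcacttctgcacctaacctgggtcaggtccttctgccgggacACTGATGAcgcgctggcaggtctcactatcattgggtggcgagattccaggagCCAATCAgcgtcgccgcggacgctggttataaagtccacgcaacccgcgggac
B2m: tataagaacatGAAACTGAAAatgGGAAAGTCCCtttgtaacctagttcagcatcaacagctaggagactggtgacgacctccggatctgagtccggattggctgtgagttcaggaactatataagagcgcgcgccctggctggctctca

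H2-Q7 carries the X box letters 69 bases before its start and the Y box letters 16 bases before it, the latter on the other strand. H2-D1 carries them at 106 and 53 bases. In B2m the response element match begins at 139 bases and the NF-kB match, on the other strand, at 126 bases. Within 250 bases before the start and on both strands, the Y box letters occur in 15 of the 30 member promoters, among them 6 of the 9 class II ones, and in 7.65% of all 27025 promoters in the table. The X box letters occur in 10 of the 30, 4 of 9 of class II, and in 2.18% of all promoters. The response element core occurs in 4 (3.04% of all promoters), the gamma-activated letters TTCNNNGAA in 3 (7.18%) and the NF-kB core in 2 (1.40%). Among genes called higher in GOF epithelium, the promoter of H2-DMa had no match to any of these patterns. That of Psmb8 had only the gamma-activated letters. No searched pattern overlaps another in the sequences shown. A match is a description of letters and does not show that a protein binds there.

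Class II transcripts were higher in GOF epithelial-like cells than in wild-type ones. Of the 8 class II genes with enough UMIs to test, 6 were called higher and 0 lower by edgeR's quasi-likelihood test at an adjusted p under 0.05: both chains of I-A, the tested chain of I-E, the invariant chain and both main chains of H2-DM. All 8 had a positive log2 difference, with a median of 2.66. Together with class I, 9 of the 32 tested members were called higher and 0 lower. Of all 15397 tested genes, 11.6% were called higher and 4.12% lower, and their median log2 difference was -0.01. At an unadjusted p under 0.05 in the same test stood 16 of the 32 members, beside 5327 of the 15397 genes. The called share was larger among the members than among all genes, a difference that was not tested. The values below are sums over 4876 epithelial-like cells in GOF and 2851, 1449 and 1156 in the wild-type replicates.

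H2-Ab1, the beta chain of I-A, stood at 106 CPM in GOF and at 8.85, 7.40 and 3.78 CPM in wild-type replicates 1, 2 and 3. Its alpha chain, H2-Aa, stood at 70.7 against 5.88, 8.12 and 11.3 CPM. H2-Eb1, the beta chain of I-E, stood at 84.7 against 7.46, 8.84 and 7.88 CPM. In each of these chains the GOF library lay far above all wild-type libraries, which lay near each other. The log2 difference was 3.55 ± 0.36 (SE) for H2-Ab1 (11.7-fold, edgeR adjusted p = 0.00461), 2.72 ± 0.34 for H2-Aa (6.6-fold, adjusted p = 0.00802) and 3.02 ± 0.19 for H2-Eb1 (8.10-fold, adjusted p = 0.00183).

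The invariant chain Cd74, which fills the class II groove until peptides replace it, stood at 578 CPM in GOF and 124, 109 and 53.5 CPM in wild type. Its log2 difference was 2.22 ± 0.40 (4.65-fold, edgeR adjusted p = 0.0218). H2-DMa and H2-DMb1 form H2-DM, which exchanges the remnant of the invariant chain for peptide. H2-DMa stood at 22.95 against 2.26, 1.34 and 1.15 CPM, a log2 difference of 3.38 ± 0.39 (adjusted p = 0.00619). H2-DMb1 stood at 44.2 against 9.72, 12.1 and 5.91 CPM, a log2 difference of 1.86 ± 0.33 (adjusted p = 0.0208), and 12.7% of the 90-base windows near its 3' end also occur in H2-DMb2. The GOF value of each of the 3 genes was above every wild-type value.

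Ciita, the coactivator that class II transcription depends on, was at 4.54 CPM in GOF and 0.969, 0.308 and 0.164 CPM in wild type. Its log2 difference of 2.60 ± 0.77 did not pass the test (edgeR adjusted p = 0.0741), although the groups did not overlap. It was past the threshold without wild-type replicate 1, without the composition normalisation and with normalisation on short-intron genes. Ctss, the protease that trims the invariant chain, was at 7.89 CPM in GOF and 0.614, 7.60 and 5.91 CPM in wild type, and 2 of the wild-type libraries lay close to GOF. Its difference was 0.44 ± 1.11 (adjusted p = 0.808). H2-DMb2, H2-Oa and H2-Ob, of which the last pair forms an inhibitor of H2-DM found in B cells and some dendritic cells, had 10, 5 and 2 UMIs in all GOF epithelial-like cells and were too low to test.

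**Figure D1:**
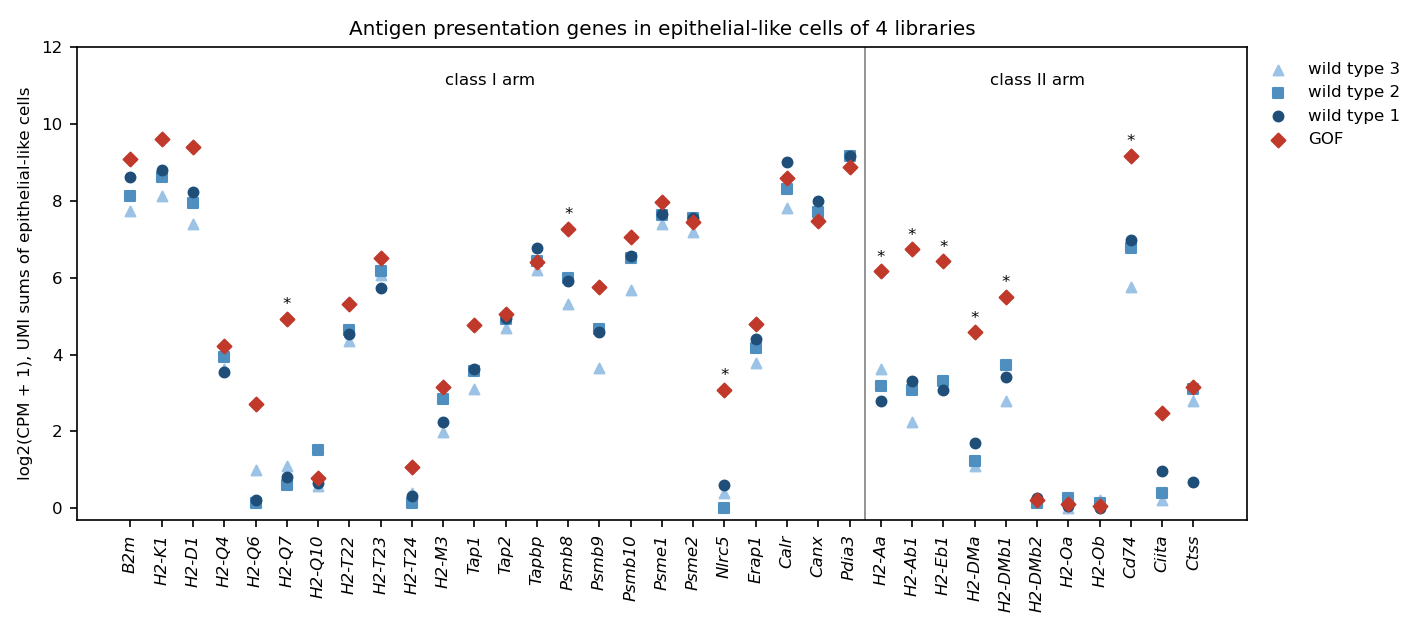
Level of the 35 members in epithelial-like cells, as log2(CPM + 1), in the GOF library and the 3 wild-type libraries, 1 point per library, with class I genes on the left and class II genes on the right. An asterisk marks the 9 members called higher by edgeR. The GOF points of H2-Ab1, H2-Aa, H2-Eb1, Cd74 and H2-Q7 stand clear of the wild-type points, and those of the chaperones Calr, Canx and Pdia3 lie among or below them.

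The class II signal was spread over many GOF epithelial cells. The class II quartet, taken as the UMIs of H2-Aa, H2-Ab1, H2-Eb1 and Cd74 together, stood at 839 CPM in GOF and 146, 133 and 76.5 CPM in wild type. When each cell was thinned to 2000 UMIs, 53.3% of GOF epithelial-like cells (2200 of 4131, exact 95% interval 51.7 to 54.8) had at least 1 UMI of the quartet. The share was 13.1% (11.9 to 14.5), 16.01% (14.0 to 18.1) and 10.8% (8.75 to 13.2) in wild-type replicates 1, 2 and 3. These intervals cover counting error only, and 745 GOF and 150, 187 and 372 wild-type cells were too shallow to enter. Without thinning the shares were 72.9% and 28.2%, 28.2% and 20.1%, with median depths of 7840 and 7410, 3413 and 2410.5 UMIs per cell. At the matched depth the richest 10% of cells held 49.2% of the quartet's UMIs in GOF and 89.99%, 79.3% and 86.8% in wild type.

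Cells with 5 or more quartet UMIs at the matched depth made up 10.7% of GOF epithelial-like cells (443 cells), 1.26% in wild-type replicate 1 (34 cells), 1.27% in replicate 2 (16 cells) and 0.255% in replicate 3 (2 cells). Other class II genes followed the quartet inside a library. In GOF, H2-DMa was at 66.8 CPM in these cells and 11.1 CPM in cells with 0 quartet UMIs, H2-DMb1 at 98.3 and 28.4 CPM, and Ciita at 11.7 and 2.88 CPM. In wild-type replicate 1 the same genes were at 51.3 and 0.863, 67.6 and 7.69, and 16.3 and 0.413 CPM. The class I heavy chain H2-K1 stood at 1195 against 620 CPM in GOF and 972 against 418 CPM in wild-type replicate 1.
These cells kept their epithelial character, with Epcam at 2001 against 1888 CPM in GOF and 2383 against 2065 CPM in wild-type replicate 1. The summed macrophage markers stood at 117 against 99.4 CPM in GOF, 14.0 against 18.8 CPM in wild-type replicate 1 and 94.2 against 47.3 CPM in replicate 2, and their part in the class II levels was not tested. These are sums over cells of 1 library each, picked by their class II UMIs, and no test was made.

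**Figure D2:**
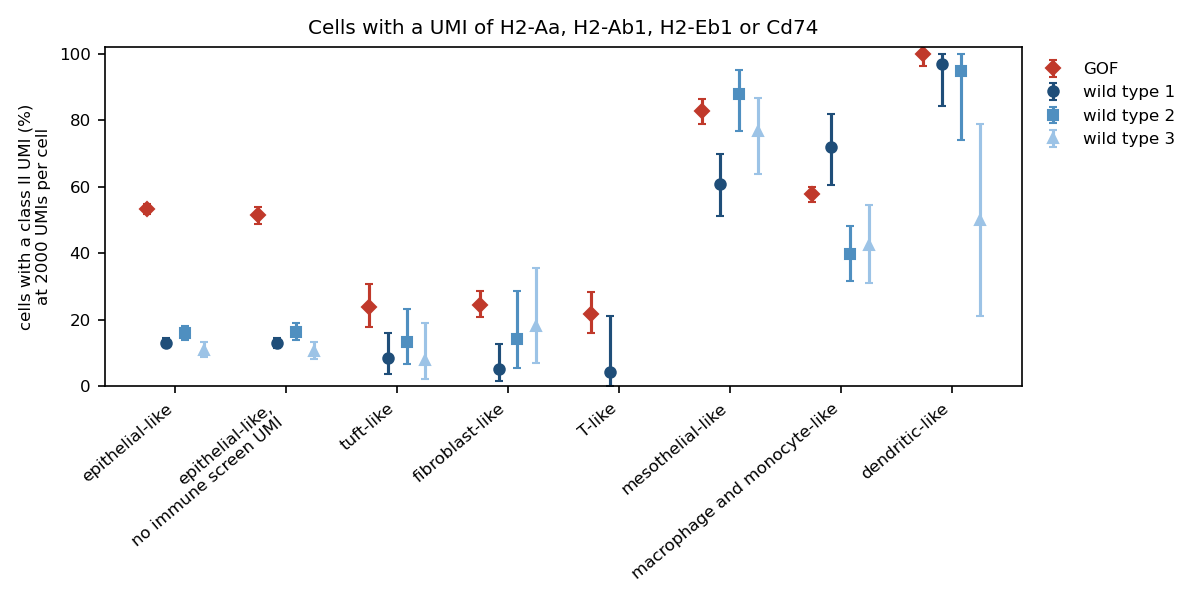
Percent of cells with at least 1 UMI of the class II quartet after thinning each cell to 2000 UMIs, by cell class and library, with exact 95% binomial intervals. GOF epithelial-like cells stand at 53.3% and the wild-type ones at 10.8% to 16.01%, while mesothelial-like cells stand at 60.9% to 87.9% in every library.

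Droplets also take up free RNA, so the same quantities were read in cells that make little or no class II. Mouse T cells do not make class II, and the quartet in T-like cells stood at 178 CPM in GOF and 32.3, 67.3 and 3893 CPM in wild type. The last value comes from 111 UMIs in 12 of 28 cells, and these cells stood apart from the T-like cells of the other libraries. Relative to the highest cluster, the T markers of the T-like cluster averaged 1 and its natural killer and innate lymphoid markers 0.823. Some T-like cells had a T receptor UMI and no UMI of macrophage, dendritic or B cell markers. They numbered 68 in GOF and 31, 20 and 10 in wild type. Their quartet stood at 86.1 CPM in GOF and 29.2, 59.9 and 1774 CPM in wild type. At 2000 UMIs, 21.7% of GOF T-like cells (39 of 180, 15.9 to 28.4) and 4.17% of those of wild-type replicate 1 (1 of 24) had a UMI of the class II quartet, and too few cells of the other libraries were that deep. Median depths of T-like cells were 2623 and 1821.5, 1224.5 and 961 UMIs.

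Other cell types gave a spread of levels. In fibroblast-like cells the quartet stood at 354 CPM in GOF and 37.5, 90.5 and 249 CPM in wild type, and in smooth muscle and pericyte-like cells at 185 against 0, 51.0 and 62.1 CPM. Acinar-like cells of the pancreas (34, 13 and 126 cells) stood at 264, 505 and 204 CPM in wild type, above the wild-type epithelial level in each library, and numbered 2 in GOF. The macrophage markers of these acinar-like cells summed to 159, 1458 and 147 CPM, and their part was not tested. The wild-type epithelial level thus lay below that of acinar-like cells in each library. In replicates 1 and 2 it lay above those of T-like, fibroblast-like and smooth muscle cells, which stood at 0 to 90.5 CPM. In GOF the epithelial level of 839 CPM lay above those of T-like, fibroblast-like and smooth muscle cells, with 1 library behind each value and no test.

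Macrophage markers also stood above wild type in GOF epithelial-like sums. The 11 markers summed to 109 CPM in GOF and 19.0, 49.1 and 47.3 CPM in wild type, and 6 of the 11 stood above every wild-type value (C1qa, Csf1r, Mrc1, Lyz2, Ccr2 and Cd68), with none at 0 in GOF. Their part in the class II result was not tested in this sum. Lyz2 held most of that sum, at 67.3 CPM in GOF and 3.10, 17.1 and 11 CPM in wild type. Of 8 dendritic markers 3 stood above every wild-type value, and Clec9a and Siglech were at 0 in all wild-type libraries. The 6 B cell markers summed to 1.97 CPM in GOF and 2.36, 2.57 and 3.12 CPM in wild type, and 1 of them stood above every wild-type value.

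The quartet was also set against the macrophage markers of the same cells. Per UMI of the macrophage markers, GOF epithelial-like cells held 7.73 quartet UMIs (95% interval 7.54 to 7.93), GOF fibroblast-like cells 1.84, GOF T-like cells 0.378 (0.306 to 0.463), GOF macrophages 0.203 and GOF dendritic cells 28.0. In wild-type epithelial-like cells the ratio was 7.72 (7.08 to 8.43), 2.71 (2.43 to 3.01) and 1.62 (1.39 to 1.88) in replicates 1, 2 and 3. The GOF ratio was near that of replicate 1, and both were above those of replicates 2 and 3. These intervals take each UMI as an independent draw, so they cover counting error only and do not rank the libraries. Without thinning, the richest 488 of 4876 GOF cells held 57.7% of the quartet's UMIs. In replicate 3, 1 cell held 27.3% of them. In T-like cells the wild-type ratios were 0.121, 0.190 and 6.94, the last with an interval of 4.09 to 12.6.

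Leaving out every cell with a UMI of 13 immune genes, among them Ptprc, Lyz2, the C1q genes, Cd79a and Cd3e, kept 1882 GOF and 2349, 996 and 902 wild-type epithelial-like cells. The quartet in these cells was at 830 CPM in GOF and 149, 131 and 48.0 CPM in wild type. These values were near those of all epithelial-like cells in GOF and in replicates 1 and 2, and lower than the 76.5 CPM of replicate 3. Their macrophage markers summed to 23.5 against 12.1, 14.7 and 18.0 CPM, and the ratio became 35.3 against 12.3, 8.86 and 2.67. All 6 class II calls held in this fit, and the number of called members was again 9. The screen uses some of the 11 macrophage markers itself, so the lower sum follows in part from it.

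The GOF difference was also seen inside clusters that both genotypes shared. In cluster 4 the quartet stood at 1184 CPM in 207 GOF cells and 55.0 CPM in 50 cells of wild-type replicate 1. In cluster 24 it stood at 470 CPM in GOF and 21.2, 85.0 and 128 CPM in wild type. The few GOF cells in the mostly wild-type clusters 21, 22, 28 and 31 (31, 47, 63 and 21 cells) stood at 1260, 1154, 1251 and 1801 CPM. The wild-type libraries stood there at 29.2 to 275 CPM. The GOF values rest on 56342, 103122, 79126 and 185431 UMIs of all genes, against 25991996 in the 1384 GOF cells of cluster 0. Among clusters 0, 1, 5, 6 and 10, the quartet of GOF cells ranged from 584 CPM in cluster 6 to 958 CPM in cluster 1. Lyz2, a macrophage marker, also stood higher in GOF than in wild type in the shared clusters. It stood at 92.2 CPM in GOF against 4.82 CPM in cluster 4, at 61.1 against 2.36, 12.1 and 9.77 in cluster 24, and at 160 against 2.47 to 15.3 in cluster 21. In clusters 22, 28 and 31 it stood at 194, 215 and 37.7 CPM in GOF and at 2.61 to 21.7 CPM in wild type. Between GOF cells of clusters 6 and 1 its order was the reverse of that of the quartet, at 133 and 62.6 CPM. The part of Lyz2 in the class II levels of these clusters was not tested. No cluster value was tested, since 1 GOF library stands behind each.

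**Figure D3:**
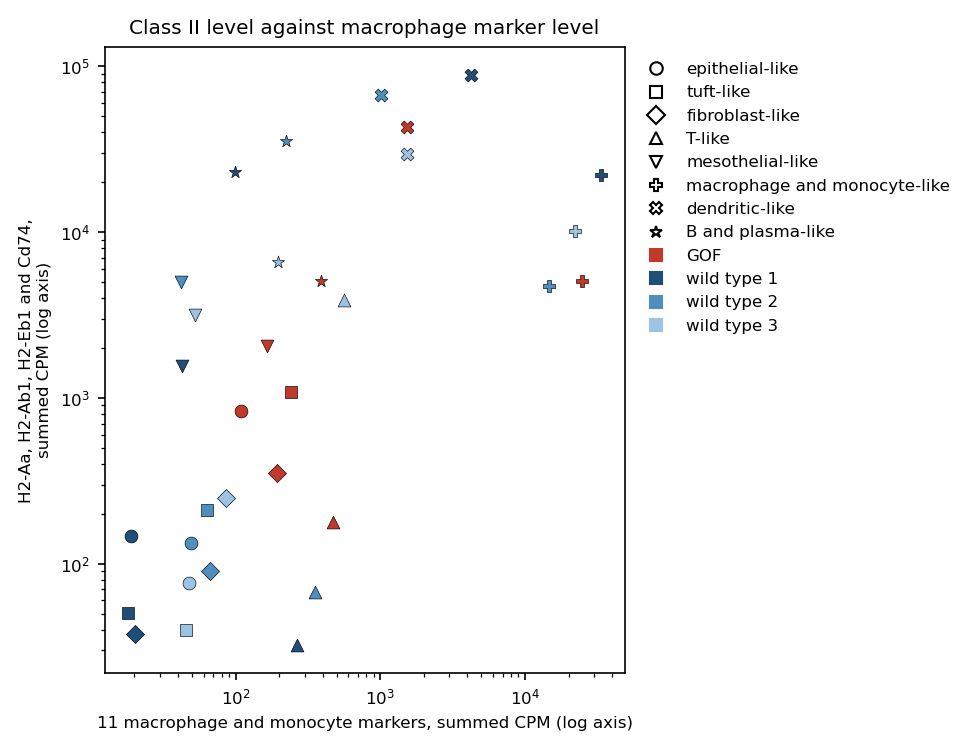
Summed level of the class II quartet (CPM, log axis) against the summed level of 11 macrophage markers (CPM, log axis) in each cell class (shapes) and library (colours). GOF epithelial-like cells lie at 109 CPM of macrophage markers and 839 CPM of the quartet, GOF T-like cells at 472 and 178 CPM, and T-like cells of wild-type replicate 3 far above those of the other wild-type libraries.

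All 24 class I route genes were tested in epithelial-like cells, and 3 were called higher and 0 lower. This share is near the 11.6% of all genes called higher and is no result about class I. Of the 24 genes 17 had a positive log2 difference, with a median of 0.41. The 3 were H2-Q7, Nlrc5 and Psmb8. The comparison of this median with that of class II is a description, without a test.

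H2-Q7, a nonclassical heavy chain of the Qa-2 group, stood at 29.4 CPM in GOF and 0.743, 0.514 and 1.15 CPM in wild type. With 1770 UMIs in GOF against 35 in all wild-type libraries, its log2 difference of 4.88 ± 0.38 was 29.4-fold (edgeR adjusted p = 0.00261). Of its transcript's 90-base windows, 18.1% also occur in related genes, but 0% of those in the last 500 bases, where 3' libraries are read. Its neighbour H2-Q6 was at 5.51 CPM in GOF and 0.161, 0.103 and 0.985 CPM in wild type. That difference of 3.71 ± 0.98 missed the threshold (adjusted p = 0.0566). It was called with each of the other scalings and DESeq2, with stricter cell filters, without a filter on low counts, with cluster 26 added and without wild-type replicate 3. Of the gene's 3' windows, 10.9% are shared with other genes.

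Nlrc5, the coactivator of class I genes, was at 7.43 CPM in GOF and 0.517, 0 and 0.328 CPM in wild type. Its log2 difference was 4.10 ± 0.88 (17.1-fold, edgeR adjusted p = 0.0350), from 448 GOF and 18 wild-type UMIs. It carries 84.4 kb of intron, and Ciita 38.8 kb. Whether intronic reads were counted in either library set is not given in the sources used here, so this difference cannot be told apart from one of counting.

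Psmb8, Psmb9 and Psmb10 are the catalytic subunits of the immunoproteasome, which cuts peptides fit for class I. Psmb8 stood at 153 CPM in GOF and 59.6, 62.4 and 38.6 CPM in wild type, a log2 difference of 1.13 ± 0.27 (edgeR adjusted p = 0.0441). In cells without an immune UMI it stood at 152 CPM against 61.6, 64.9 and 38.2 CPM, nearly as in all cells, and the difference of 1.04 fell short of the threshold (adjusted p = 0.053). Psmb9 stood at 53.4 CPM against 22.9, 24.3 and 11.5 CPM, and its difference of 1.06 ± 0.37 did not pass (adjusted p = 0.108). It was called with normalisation on short-intron genes and without wild-type replicate 3. For Psmb10 the difference was 0.38 (adjusted p = 0.478). Psmb9 and the transporter gene Tap1 overlap on opposite strands.
Tap1 stood at 26.3 CPM in GOF and 11.3, 10.9 and 7.55 CPM in wild type, a difference of 1.01 ± 0.27 that missed the threshold (edgeR adjusted p = 0.0563). It was called with each of the other scalings and DESeq2, with stricter cell filters, in cells without an immune UMI, with the unnamed cluster 26 added and without wild-type replicate 1 or 3. Its partner Tap2 had a difference of -0.18 (adjusted p = 0.567).

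The classical heavy chains and the light chain were above every wild-type value in GOF without passing the test. H2-K1 stood at 782 CPM in GOF and 446, 395 and 278 CPM in wild type, a log2 difference of 0.69 ± 0.29 (edgeR adjusted p = 0.152). It was called with normalisation on short-intron genes. H2-D1 stood at 673 against 301, 244 and 167 CPM, with 1.12 ± 0.32 (adjusted p = 0.0664), and was called with each of the other scalings, with DESeq2 and without wild-type replicate 1 or 3. B2m stood at 545 against 392.1, 280 and 213 CPM, with 0.50 ± 0.34 (adjusted p = 0.339). H2-T23, the Qa-1 chain that presents leader peptides of other class I molecules, stood at 90.4 against 52.1, 70.5 and 66.7 CPM, with 0.14 ± 0.23 (adjusted p = 0.698).

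Among the other heavy chains, the log2 difference was 0.18 for H2-Q4, -0.80 for H2-Q10, 0.44 for H2-T22, 1.88 for H2-T24 and 0.50 for H2-M3. Their adjusted p ranged from 0.175 for H2-T22 to 0.647 for H2-Q4, and 26.5% of the 3' windows of H2-T22 also occur in H2-T10, as 9.49% of those of H2-Q4 and 13.4% of those of H2-T23 do in other genes. The proteasome activator genes Psme1 and Psme2 gave 0.03 and -0.37 (39.4% of the 3' windows of Psme2 are shared with Psme2b), and the trimming protease Erap1 gave 0.29. The folding chaperones Calr, Canx and Pdia3, which serve most secreted proteins, gave -0.26, -0.71 and -0.60, and tapasin (Tapbp) gave -0.46. None of these passed the test. Canx had the smallest adjusted p of them, at 0.0880, and DESeq2 called it lower. H2-T22 was called higher without the composition normalisation and with normalisation on short-intron genes.

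How the libraries are scaled bears on the weaker differences. Without the composition normalisation the median of all genes moved from -0.01 to 0.37, and with factors from genes of at most 5 kb of intron to 0.42. The share of higher genes among those called then moved from 73.7% to 91.2% and 92.3%, and with DESeq2 to 62.3%. Under these scalings 14 and 16 members were called, all higher, and DESeq2 called 12 higher and 1 lower. The 9 calls above held in each of them. Leaving out the composition normalisation and scaling on short-intron genes both moved the differences upward. Small negative differences within that shift, such as those of Tap2 (-0.18) and Calr (-0.26), have no direction that is free of the scaling. Small positive ones, such as those of H2-T23, Psme1 or Erap1, depend on it in size.

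Genes around the pathway were read from a list of 74 further genes, of which 69 were tested in epithelial-like cells. Of these 7 were called higher and 1 lower, with a median log2 difference of -0.10, beside 11.6% and 4.12% of all genes, so that the share of higher genes is near the background. The regulators of class I and interferon signalling had 4 of 15 called higher (median 0.91), the costimulation and checkpoint genes 2 of 9 (median 1.14) and the constitutive proteasome and its regulators 1 of 8. The peptide trimming and folding genes had 1 of 12 called lower. No call was made in the 8 class II regulators (median -0.33), the 9 lysosomal genes or the 8 other class I-like genes.

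Icam1, an adhesion molecule that steadies the contact with T cells, stood at 127 CPM in GOF and 18.6, 15.1 and 6.90 CPM in wild type, a log2 difference of 2.81. Irf1, a transcription factor induced by interferon gamma, stood at 79.8 against 17.8, 15.0 and 9.36 CPM (2.10). Irf7, a factor of the type I interferon response, stood at 78.6 against 17.8, 17.5 and 20.2 CPM (1.71).
Stat2 and Irf9 are partners in the complex that type I interferon activates, and both were called higher. Stat2 was at 22.8 against 5.07, 6.68 and 5.91 CPM (1.58), and Irf9 at 31.2 against 12.7, 14.1 and 10.5 CPM (0.95). Nectin2, a ligand of receptors on T and natural killer cells, was at 223 against 92.0, 78.6 and 62.2 CPM (1.14).
The proteasome activator Psme4 was at 81.3 against 33.7, 26.3 and 21.0 CPM (1.20). Ganab, a glucosidase that trims glycans for the calnexin cycle, was lower at 47.3 against 74.6, 60.7 and 65.5 CPM (-0.89). The subunits of the factor that binds the X box, Rfx5, Rfxap and Rfxank, had differences of -0.53, -0.27 and -1.02, none of them called.

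The same comparison was made in 8 other cell classes with at least 20 cells in every library. Across them 20 calls were made, all higher, from 192 tests of members. Of all genes tested in a class, 4.06% to 13.7% were called higher there. The pooled share of members lay within that range and is no result about the members. Without wild-type replicate 3, 36 calls were made, of which 8 were lower and 6 of those in B and plasma-like cells. The 36 are given without a share over all genes and are no such result either. DESeq2 made 5.

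Tuft-like cells, chemosensory cells of the duct lining, gave the pattern closest to the epithelial one. Of 26 tested members 10 were called higher and 0 lower, beside 9.58% and 3.3% of all genes, and 6 of the 7 tested class II genes were among them (median log2 difference 3.57). The quartet stood at 1079 CPM in GOF and 50.4, 212 and 39.8 CPM in wild type. The differences were 3.83 for H2-Aa, 3.98 for H2-Ab1, 3.61 for H2-Eb1, 3.57 for H2-DMa, 3.00 for Cd74 and 2.18 for H2-DMb1, all called by edgeR. Of class I, Psmb9 (1.56), Psmb8 (1.47) and H2-D1 (0.98) were called, and so was H2-Q7, at 38 GOF and 2 wild-type UMIs, a ratio of 20.9 with a counting interval of 5.39 to 179.
The signal lay in few cells. Of 188 GOF tuft-like cells 79 had a quartet UMI, and 19 cells held 85.7% of these UMIs. In wild type, 1 cell held 34 of the 78 quartet UMIs of replicate 1 and 1 cell 95 of the 153 of replicate 2. GOF tuft-like cells were in cluster 14 and wild-type ones in cluster 37, and their macrophage markers summed to 243 CPM in GOF against 18.1, 63.7 and 45.1 CPM, whose part in the result was not tested. DESeq2 called 2 members, beside 331 higher and 143 lower among all 10212 genes.

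Mesothelial-like cells, the outer lining of the duct, carried class II in every library. The quartet stood at 2049 CPM in GOF and 1559, 5000 and 3162 CPM in wild type, so that GOF lay inside the wild-type range. At 2000 UMIs, a UMI of the class II quartet was found in 82.8% of them in GOF and in 60.9%, 87.9% and 76.7% in wild type. Of 28 tested members 2 were called higher and 0 lower, beside 8.39% and 3% of all genes, a share near the background. These were H2-Q7, at 237 CPM against 25.2, 37.7 and 76.0 CPM (2.30 ± 0.42, edgeR adjusted p = 0.00455), and H2-Q6, at 56.0 against 11.6, 19.97 and 28.8 CPM (1.46 ± 0.40, adjusted p = 0.0379). Most GOF mesothelial-like cells, 378 of 489, were in cluster 20, and wild-type ones in cluster 9.

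In fibroblast-like cells 2 of 20 tested members were called higher and 0 lower, beside 12.9% and 7.26% of all genes, again a share near the background. H2-Q7 stood at 130 CPM in GOF and 0, 0 and 34.5 CPM in wild type (3.31 ± 0.76, edgeR adjusted p = 0.00685), and Psmb8 at 179 against 66.3, 81.0 and 69.1 CPM (1.19 ± 0.35, adjusted p = 0.0277). Without cluster 7, which held 251 GOF cells and no wild-type cell, neither was called, beside 582 higher and 166 lower among all 6451 genes. DESeq2 called 0 members, beside 323 higher and 337 lower among all 6500 genes. Most GOF fibroblast-like cells were in clusters 7 and 12 (251 and 288 cells) and wild-type ones in cluster 8, which also held 35 GOF cells. In cluster 8 the quartet stood at 780 CPM in GOF and 37.5, 90.5 and 249 CPM in wild type.
Lymphatic endothelial-like cells gave 5 of 21 called higher and 0 lower, beside 11.4% and 4.97% of all genes. These were H2-Q7, H2-Q6, H2-T22 (1.26), B2m (1.15) and H2-K1 (1.11). H2-Q7 had 190 UMIs in GOF and 1 in wild type, a ratio of 101 with a counting interval of 18.0 to 4020, and H2-Q6 62 and 1. Without wild-type replicate 1 no member was called, and 0 of all 4072 genes were called in either direction. DESeq2 called 2 members, beside 117 higher and 96 lower among all 4225 genes.

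Dendritic cells were not tested for GOF against wild type, with 16 cells in wild-type replicate 3. In macrophage and monocyte-like cells 0 of 29 tested members were called by edgeR in either direction, beside 8.47% of all genes higher and 2.56% lower. DESeq2 called 0 members, beside 328 higher and 200 lower among all 8374 genes. At an unadjusted edgeR p under 0.05 were 2 members (Tap2 and Cd74), beside 2065 of 8374 genes. Of the 29 differences 26 were negative. Cd74 stood at 2769 CPM in GOF and 13222, 3219 and 6609 CPM in wild type. Most GOF macrophages were in clusters 2 and 25 (1304 and 283 of 1789 cells) and most wild-type ones in 18, 19 and 29, which also held 108, 81 and 13 GOF cells. The 81 GOF cells of cluster 19 stood at 54239 CPM of the quartet, and the 108 of cluster 18 at 2117 CPM.
B and plasma-like cells gave 1 of 27 called higher, the chaperone Calr (2.18), and 0 lower, beside 4.06% and 0.431% of all genes. DESeq2 called 0 of their members, beside 32 higher and 13 lower among all 3715 genes. T-like cells gave 0 of 23 in either direction, beside 13.7% and 3.49%, and 0 by DESeq2, beside 35 higher and 27 lower. Of their members, 1 was at an unadjusted edgeR p under 0.05, beside 748 of 2461 genes. Blood endothelial-like cells gave 0 of 18, beside 8.49% and 5.09%, and 0 by DESeq2, beside 56 higher and 43 lower. Of their members, 1 was at an unadjusted edgeR p under 0.05, beside 685 of 2556 genes. T-like and blood endothelial-like sums held the fewest cells, 28 to 240 and 31 to 79 per library, and 2461 and 2556 genes had enough UMIs to test.

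**Figure D4:**
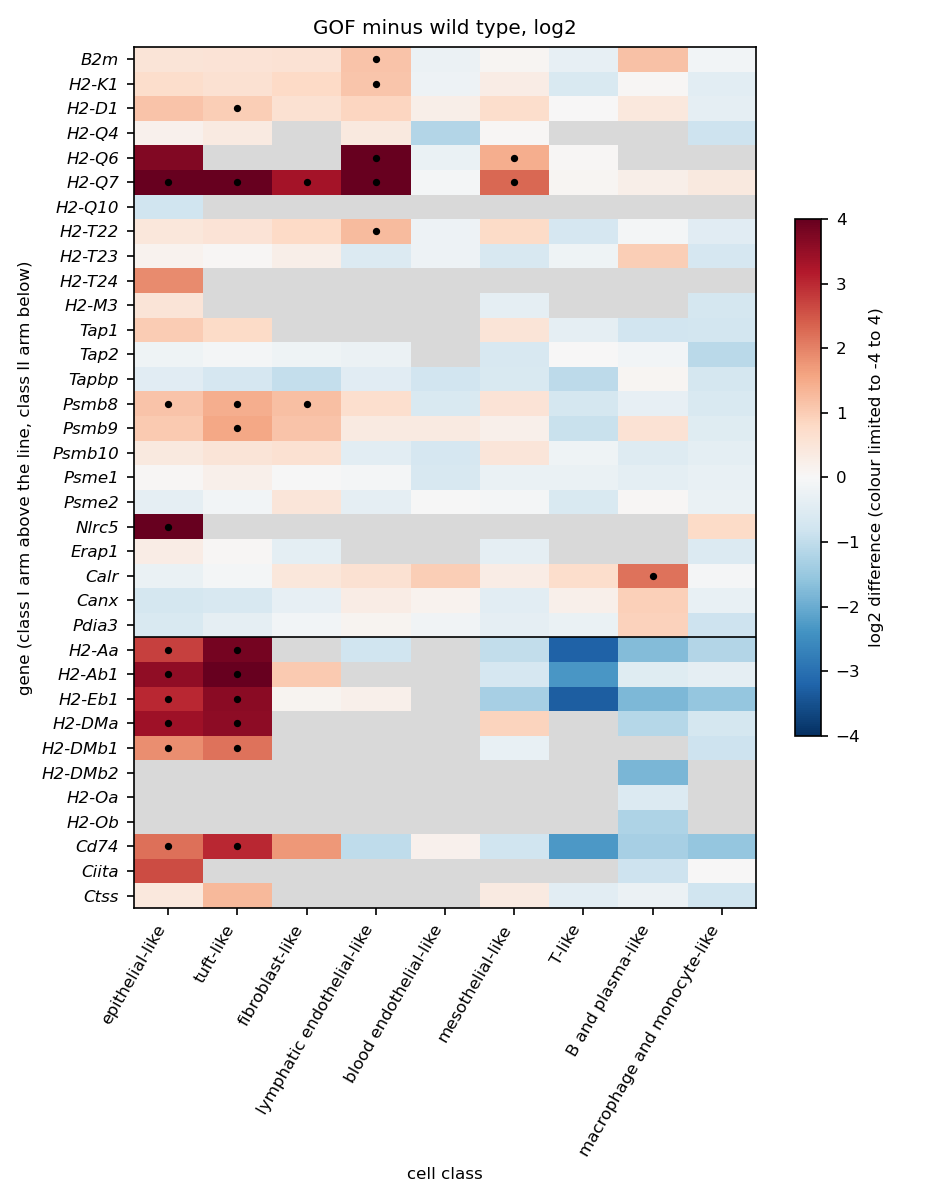
Log2 difference of GOF minus wild type for each member (rows) in 9 cell classes (columns), with the colour scale limited to -4 to 4. A dot marks a call by edgeR and grey marks too few UMIs to test. Class II rows are red in the epithelial-like and tuft-like columns, H2-Q7 is red and called in 5 columns, and most rows are blue in the macrophage column.

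Whether the GOF difference itself varied with cell type was tested with an interaction of class and group, with the library as a block. Against fibroblast-like cells 3 of 31 members had a larger difference in epithelium and 0 a smaller one, beside 3.07% and 2.32% of all genes. These were H2-Eb1 (2.82 ± 0.58, edgeR adjusted p = 8.466e-05), H2-Ab1 (2.50 ± 0.64, adjusted p = 0.00338) and H2-Aa (2.42 ± 0.66, adjusted p = 0.00752). Only H2-Eb1 was called without wild-type replicate 3, beside 499 higher and 357 lower among all 15296 genes. DESeq2 called no member, beside 127 higher and 55 lower among all 15268 genes. Without cluster 7, 5 members were called, with Cd74 (1.80) and H2-Q7 (3.95) added. That fit called 139 higher and 58 lower among all 14517 genes. In cluster 8, which held fibroblast-like cells of every library, the chains H2-Aa, H2-Ab1 and H2-Eb1 also stood higher in GOF. They were at 86.7, 86.7 and 67.4 CPM in 35 GOF cells with 103797 UMIs in all. The wild-type libraries stood there at 8.65 to 24.2, 5.77 to 27.6 and 8.65 to 33.3 CPM. The part of the mix of clusters in the interaction was not tested.

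Against macrophage and monocyte-like cells 8 of 35 members had a larger GOF difference in epithelium and 0 a smaller one, beside 1.59% and 1.31% of all genes. The interaction was 4.63 for H2-Q7, 4.15 for H2-DMa, 4.14 for H2-Eb1, 3.69 for H2-Ab1, 3.66 for H2-Aa, 3.64 for Cd74, 2.56 for H2-DMb1 and 1.73 for Psmb8. DESeq2 called 5 of them, H2-Q7, H2-Ab1, H2-Eb1, H2-DMa and Cd74, beside 59 higher and 34 lower among all 14934 genes. Most GOF macrophages were in clusters 2 and 25, which held 0 to 5 cells of any wild-type library. Their quartet stood at 3679 and 2957 CPM in GOF. The 81 GOF cells of cluster 19 stood at 54239 CPM, and the 33 cells of wild-type replicate 1 in cluster 29 at 49047 CPM. The part of the mix of clusters in the interaction was not tested.

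Against T-like cells, a comparison added after the data had been seen, 6 of 34 members had a larger GOF difference in epithelium and 0 a smaller one, beside 0.193% and 0.444% of all genes. The class II calls rested on wild-type replicate 3, whose T-like cells carried the class II UMIs described above. The interaction was 5.65 for H2-Eb1, 5.35 for H2-Aa, 5.26 for H2-Ab1 and 3.13 for Cd74 in all libraries, and without that replicate 1.99, 1.57, 2.95 and -0.58, none of them called. H2-Q7 (4.89) and H2-Q6 (3.84) stayed called without it, at 5.32 and 4.67, joined by Psmb9 (1.95) and Psmb8 (1.82). T-like cells were then limited to those with a T receptor UMI and no UMI of the macrophage, dendritic or B cell markers. In that fit only H2-Q7 was called, at 4.72, beside 7 higher and 19 lower among all 13255 genes. With all T-like cells, DESeq2 also called H2-Q7 alone of the members, beside 4 higher and 2 lower among all 13500 genes.
In T-like cells H2-Q7 stood at 454 CPM in GOF and 542, 404 and 281 CPM in wild type, so that the groups overlapped.

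Wild-type epithelium was low in class I against its lymphocytes. With the library as a block, 15 of 29 members were lower in wild-type epithelial-like than in T-like cells and 2 were higher, beside 5.89% of all genes lower and 12.1% higher. The log2 differences were -8.79 for H2-Q7 and -7.78 for H2-Q6, the widest of the members, -3.54 for Psmb8, -2.96 for Psmb9, -2.67 for Tap1, -2.58 for H2-M3, -2.46 for H2-T22, -2.38 for H2-K1, -2.23 for H2-Q4, -2.15 for B2m and -1.95 for H2-D1, and -4.72 for the protease Ctss. The chaperones Calr (1.98) and Canx (1.36) were higher in epithelium. H2-K1, for example, stood at 446, 395 and 278 CPM in epithelial-like and 3968, 2356 and 2139 CPM in T-like cells of the same libraries.
The other 3 lower calls, H2-Aa (-3.01), H2-Eb1 (-2.72) and H2-Ab1 (-2.51), again rested on wild-type replicate 3. Without it their differences were 0.68, 0.94 and -0.02 and not called, and Cd74 turned from -0.94, not called, to 2.81 and called higher in epithelium. So the direction of Cd74 against T-like cells depended on that 1 library.

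Against fibroblast-like cells 4 of 27 members were lower in wild-type epithelium and 0 higher, beside 15.2% and 14.6% of all genes. These were H2-T22 (-1.02 ± 0.29, edgeR adjusted p = 0.0170), Tapbp (-0.98 ± 0.20, adjusted p = 0.00193), H2-D1 (-0.90 ± 0.21, adjusted p = 0.00432) and B2m (-0.86 ± 0.22, adjusted p = 0.00846). The share of lower members was near that of all genes. Without wild-type replicate 3, H2-D1 and Tapbp were still called, and Cd74 was called higher at 2.39.

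**Figure D5:**
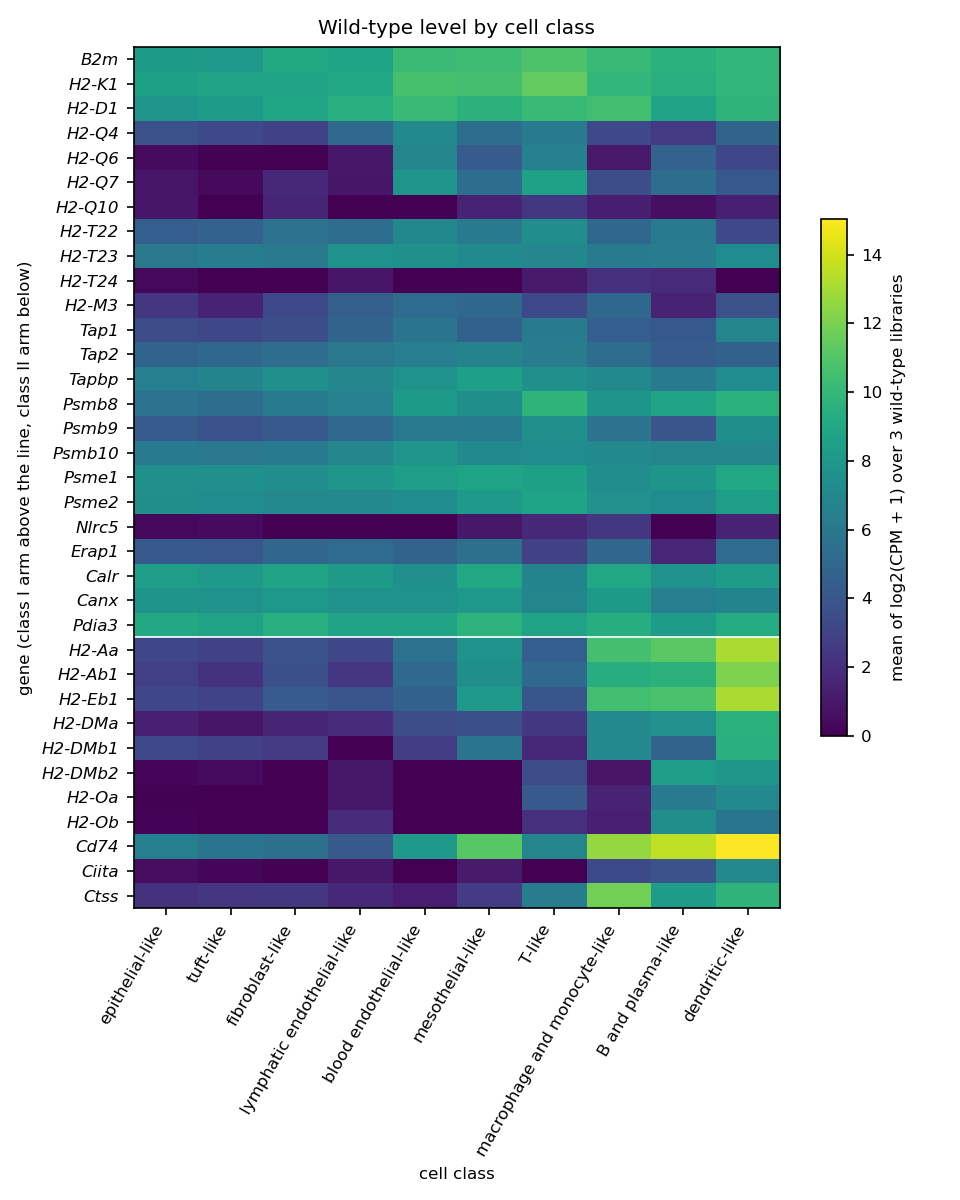
Mean of log2(CPM + 1) over the 3 wild-type libraries for each member (rows) in 10 cell classes (columns). Class II rows are high in dendritic, B and plasma, macrophage and mesothelial-like columns and low in epithelial, tuft and fibroblast-like ones, whereas H2-K1, H2-D1 and B2m are seen in every column.

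By level of the quartet in wild type, dendritic cells came first in every library, at 88198, 67156 and 29726 CPM. B and plasma-like cells stood at 23038, 35341 and 6568 CPM, so that their highest library passed the lowest dendritic one, and macrophages at 22210, 4742 and 10173 CPM overlapped them. Mesothelial-like cells came next, at 1559, 5000 and 3162 CPM, and overlapped macrophages at the edge. Blood endothelial-like cells, at 499, 444 and 302 CPM, overlapped the acinar-like ones, and lymphatic endothelial-like cells stood at 11.9, 18.0 and 1050 CPM. The last value rests on 1 cell, which held 152 of the 168 quartet UMIs of that library. Neutrophils stood at 133, 300 and 246 CPM. Epithelial-like, tuft-like and fibroblast-like cells, at 37.5 to 249 CPM, did not differ from each other beyond the spread between libraries. In GOF, dendritic cells stood at 43117 CPM, and the GOF epithelial level of 839 CPM lay below mesothelial-like cells at 2049 CPM.

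Over 35 wild-type sums of library and class, covering 13 classes, the 5 genes whose log2(CPM + 1) followed H2-Ab1 most closely among 9074 genes were Cd74 (Pearson r = 0.905), H2-DMa (0.884), H2-Eb1 (0.872), H2-Aa (0.863) and Rassf4 (0.789). For H2-K1 they were B2m (0.883), Psmb8 (0.860), H2-D1 (0.819), Ifi47 (0.767) and Sp110 (0.761). Sums of 1 library share its depth and its free RNA, and the correlations are a description.

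Ifi30, a lysosomal reductase that opens disulfide bonds of antigens for class II loading, is listed in the GOF library alone and has no wild-type value. In GOF it stood at 1472 CPM in dendritic cells, 575 CPM in macrophages, 177 CPM in B and plasma-like cells, 108 CPM in tuft-like cells and 106 CPM in epithelial-like cells. It stood at 75.4 CPM in fibroblast-like, 74.5 CPM in smooth muscle and pericyte-like and 71.8 CPM in mesothelial-like cells, and at 25.7 CPM in T-like cells, 7.17 CPM in blood endothelial-like cells and 5.36 CPM in lymphatic endothelial-like cells of the same library. The epithelial level thus lay near that of tuft-like cells, above those of stromal, mesothelial, T-like and vessel cells and below those of B and plasma-like cells, macrophages and dendritic cells. With 1 library no test was possible.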

How the data were processed

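Gene counts of single-cell libraries were used as the authors deposited them, as whole-number UMI counts per gene and barcode from Cell Ranger (version 7.0.0 for GOF and 3.0.2 for wild type, per the file headers, and 7.1 with build mm10, per the submitters' processing notes). For the reference release and the counting of introns, no statement was found in the labels or headers.

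The cell filter was 500 genes or more and a mitochondrial share of 25% or less, and 872 GOF and 228, 65 and 45 wild-type barcodes with the highest doublet scores were left out (scanpy 1.11.5, 0.8% per 1000 barcodes). Pairs of libraries shared 5 to 19 barcode sequences. Cells were clustered (2000 variable genes, 30 components, 15 neighbours, Leiden resolution 1.5, 38 clusters), without the members and the wider list, and clusters named from fixed markers. Raw counts were summed per library and class with at least 20 cells. Sums were tested with edgeR 4.0.16 (TMM, filterByExpr, quasi-likelihood test, Benjamini-Hochberg over all tested genes, threshold 0.05) in R 4.3.3, with DESeq2 1.42.0 as an alternative. Standard errors are the log2 difference over the root of F. Recovery was tested on simulated data. Wild-type replicates differed far beyond sampling noise (chi-square per degree of freedom 58.4 to 136), so each counts as 1 sample. Where wild-type classes are compared, the block is the library that both classes share.

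The members, the wider list and the markers were chosen with earlier results of these data known. Every member is named. Values in every library are given for 17 members listed by name and any other called in epithelium, for the 8 wider-list genes called there with the largest difference and at least 20 CPM, and correlations for the 5 genes closest to H2-Ab1 and to H2-K1. Alternatives covered normalisation, the low-count filter, the tool, each wild-type library left out, cell filters, doublets and an immune-gene screen. Classes with under 20 cells in a library were not tested. Ifi30 entered no comparison.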

Additional observations from a re-analysis of the deposited data

Results flagged for a closer look

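The GOF difference of several members differed between epithelial-like cells and another cell class, by the test of the difference itself in edgeR. Against fibroblast-like cells it was larger in epithelium by 2.82 (log2) for H2-Eb1, 2.50 for H2-Ab1 and 2.42 for H2-Aa. In cluster 8, the fibroblast-like cluster with cells of every library, these chains stood at 67.4 to 86.7 CPM in 35 GOF cells. The wild-type libraries stood lower there, and the part of the mix of clusters was not tested. In macrophage and monocyte-like cells the GOF differences of most members were negative, and the gap to epithelium was 4.63 for H2-Q7, 4.15 for H2-DMa, 4.14 for H2-Eb1, 3.69 for H2-Ab1, 3.66 for H2-Aa, 3.64 for Cd74, 2.56 for H2-DMb1 and 1.73 for Psmb8. Most GOF macrophages were in clusters 2 and 25, which held 0 to 5 cells of any wild-type library. The part of that mix of clusters was not tested. Against T-like cells the gap was 5.65 for H2-Eb1, 5.35 for H2-Aa, 5.26 for H2-Ab1, 4.89 for H2-Q7, 3.84 for H2-Q6 and 3.13 for Cd74. The class II calls in the comparison with T-like cells were lost without wild-type replicate 3 (1.99 for H2-Eb1, 1.57 for H2-Aa, 2.95 for H2-Ab1 and -0.58 for Cd74), and those of H2-Q7 and H2-Q6 were not.

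Ifi30 is listed only in the GOF library and entered no comparison. It stood at 106 CPM in GOF epithelial-like cells, 108 CPM in tuft-like, 75.4 CPM in fibroblast-like, 25.7 CPM in T-like and 177 CPM in B and plasma-like cells of the same library.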

How the results depend on the processing

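The 9 calls in GOF epithelial-like cells became 14 without the composition normalisation and 16 with normalisation on genes of at most 5 kb of intron, and 9 to 13 when 1 wild-type library was left out. Of all genes, 1784 were called higher in the main fit, 2944 and 3270 with these scalings and 1473 to 2264 with a library left out. All 9 member calls were kept under every alternative tried, except that of Psmb8. It lost its call in cells without an immune UMI, with a difference of 1.04 in place of 1.13. In other cell classes the 20 calls became 5 with DESeq2 and 14 to 36 with a library left out, 36 being without wild-type replicate 3. These counts are given without a share over all genes and are no result about the members. The 3 members whose GOF difference exceeded that of fibroblast-like cells became 0 with DESeq2, 5 without cluster 7 and 1 to 3 with a library left out. The 8 against macrophages became 5 with DESeq2. The 6 against T-like cells became 1 with DESeq2 and 1 with the T receptor gate. Fewer of all genes were also called higher with DESeq2 and with the gate. With DESeq2 that number went from 468 to 127 against fibroblast-like cells and from 238 to 59 against macrophages. Against T-like cells it went from 26 to 4 with DESeq2 and to 7 with the gate. The cause of these changes was not tested.

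The share of epithelial-like cells with a class II UMI was 39.6% in GOF and 7.93%, 9.29% and 6.72% in wild type at 1000 UMIs, 72.9% and 28.2%, 28.2% and 20.1% without thinning, and 51.4% in GOF without immune UMIs. Per UMI of B cell markers, epithelial-like cells held 425 quartet UMIs in GOF and 62.1, 51.7 and 24.5 in wild type, and T-like cells 7.28 in GOF and 2 and 4 in wild-type replicates 1 and 2. Replicate 3 had no B marker UMI in T-like cells and gave no value. Without immune UMIs the macrophage ratio was 35.3 in GOF and 12.3, 8.86 and 2.67 in wild type. For single members, 311 values kept their direction and side of the threshold, 29 gained a call and 1 lost it. Another 10 changed direction, with no call in the main fit or the alternative.

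No paired analysis was possible because the GOF group has 1 library, which shares a number with 1 wild-type library only. Where 2 classes of the wild-type libraries were compared, the fit without the library as a block made 17 calls against T-like cells and 4 against fibroblast-like cells, as many as with the block, and 15 of the 17 and all 4 were shared. T-like cells numbered 28 to 240 per library, and 23 members had enough UMIs to test there.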
